A study of Mus musculus with 4 samples.

Results

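B cell markers and genes of immunoglobulin A (IgA) transport were read in cells freshly isolated from the small bowel of mice. They were 8 genes, Pigr, Igj (now named Jchain), Cd79a, Cd79b, Blk, Blnk, Cr2 and Ms4a1, and were found by name, current symbol or older symbol among the 41174 non-control probes of a 1-colour oligonucleotide microarray, which held 11 probes for them. In IKKb(EE)IEC mice, EE for short, the kinase IKKb is constitutively active in the epithelial cells of the intestine, and WT littermates were the controls. The sources used here do not give the promoter that drives the active kinase, the age of the mice, or how many mice each sample came from. Each genotype had 2 biological replicates with 1 array each, named WT 1, WT 2, EE 1 and EE 2, and the labels give no treatment. Values are log2 signals after subtraction of each array's 75th percentile, and each difference is EE minus WT, with its standard error (SE) from a limma fit over all genes tested.

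Plasma cells of the gut wall secrete IgA as a dimer held together by the joining chain, which Igj encodes. The polymeric immunoglobulin receptor, encoded by Pigr, binds this dimer at the base of the epithelial cell, carries it across and releases it into the lumen with part of the receptor still attached. The other members belong to B lymphocytes, the precursors of plasma cells: Cd79a and Cd79b encode the signalling chains of the B cell receptor, Blk a Src family kinase and Blnk the adaptor protein below that receptor, Cr2 the complement receptor that lowers its threshold, and Ms4a1 the surface protein CD20. NF-kB, which IKKb activates, is known to raise Pigr transcription in cultured epithelial cells, and it also serves B cell survival.

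The isolated cells carried the transcripts of an epithelium: all 12 epithelial markers, among them Epcam and Vil1, were well above background on all 4 arrays, and so were 14 of 15 T and NK cell markers. "Well above background" is the scanner software's own flag for a spot. WT arrays had 34.3% and 36.0% of their spots flagged so, and EE arrays 40.8% and 41.1%. Replicates correlated at 0.978 in WT and 0.994 in EE, and arrays of different genotype at 0.937 to 0.947. The arrays may share 1 slide, in which case position on it and genotype cannot be told apart. At an adjusted p below 0.05 in limma, liver and pancreas transcripts fell in 3 of 4 measured cases, against 7.2% of all genes tested. Macrophage and dendritic cell markers rose in 6 and fell in 1 of 11, against 8.02% and 7.2%. Of those that rose, Adgre1, C1qa, C1qc and Fcgr1 entered the test through the EE arrays alone. Mup1, a liver transcript that fell, entered through the WT arrays alone, so these counts are descriptions only. The part of both lists in the members' values was not tested. In such bulk RNA, fewer cells of a type and less RNA per cell cannot be told apart.

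RefSeq promoters on the GRCm38.p6 build, which run from 250 bases before to 50 bases after the annotated start, were found for 5 of the 8 members: Pigr, Jchain, Cd79a, Cr2 and Blnk. The promoters of Pigr and Blnk are shown because Pigr is the transport receptor itself and Blnk is the member that rose, and because these were the 2 of the 5 in which a searched motif was present. The Pigr promoter lies at chr1:130826434-130826733 on the plus strand and the Blnk promoter at chr19:40994172-40994471 on the minus strand, each written 5′ to 3′ along its gene. Capitals mark the E-box CACGTG in Pigr, and in Blnk the letters ATTTGCAT, which are the octamer ATGCAAAT read on the opposite strand.
Pigr: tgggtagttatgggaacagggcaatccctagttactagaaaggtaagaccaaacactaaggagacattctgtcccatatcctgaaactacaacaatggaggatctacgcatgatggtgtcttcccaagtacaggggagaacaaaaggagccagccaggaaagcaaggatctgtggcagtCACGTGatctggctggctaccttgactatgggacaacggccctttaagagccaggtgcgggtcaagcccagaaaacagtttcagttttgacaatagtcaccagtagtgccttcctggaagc
Blnk: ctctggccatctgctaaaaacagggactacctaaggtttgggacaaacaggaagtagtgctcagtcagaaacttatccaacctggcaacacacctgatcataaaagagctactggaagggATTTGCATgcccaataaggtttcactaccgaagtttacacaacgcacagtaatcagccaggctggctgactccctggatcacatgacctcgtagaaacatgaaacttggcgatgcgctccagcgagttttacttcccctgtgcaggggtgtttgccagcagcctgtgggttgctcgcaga

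The E-box, a site class bound by upstream stimulatory factors, began 71 bases before the annotated start of Pigr. It was present in 7.15% of 32851 RefSeq promoters of the same length. The octamer, a motif of immunoglobulin and B cell promoters, began 130 bases before the start of Blnk and was present in 1.74% of all promoters. Neither the kappaB consensus (8.46% of all promoters) nor the core of the interferon-stimulated response element (3.44%) was found on either strand in any of the 5 member promoters. No overlap between motifs arose in these windows. These are letter matches in a short window and no measure of binding.

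Blnk rose in EE, Blk and Cr2 fell, and Pigr, Igj and Cd79b did not pass the test. Of the 8 members, 6 had a probe well above background on at least 2 arrays and were tested, and 7 of the 11 probes met that condition. Cd79a and Ms4a1, standard markers of B cells, were not well above background on any array. Of the 6 members tested, 3 passed an adjusted p below 0.05 in limma, against 15.2% of the 12437 genes tested. Blk, 1 of these 3, had entered the test through the WT arrays, where it is high, so the count is a description only. By direction, 1 rose against 8.02% of all genes and 2 fell against 7.2%. Arrays of the genotypes did not overlap for 3 of the 6, against 69.1% of all genes. Among these 3, 1 was higher (28.3% of all genes) and 2 were lower (40.8%), so the absence of overlap is common here and is no mark of the members. The median log2 difference was 0.0073 for the 6 members and -0.12 for all genes.

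**Figure D1:**
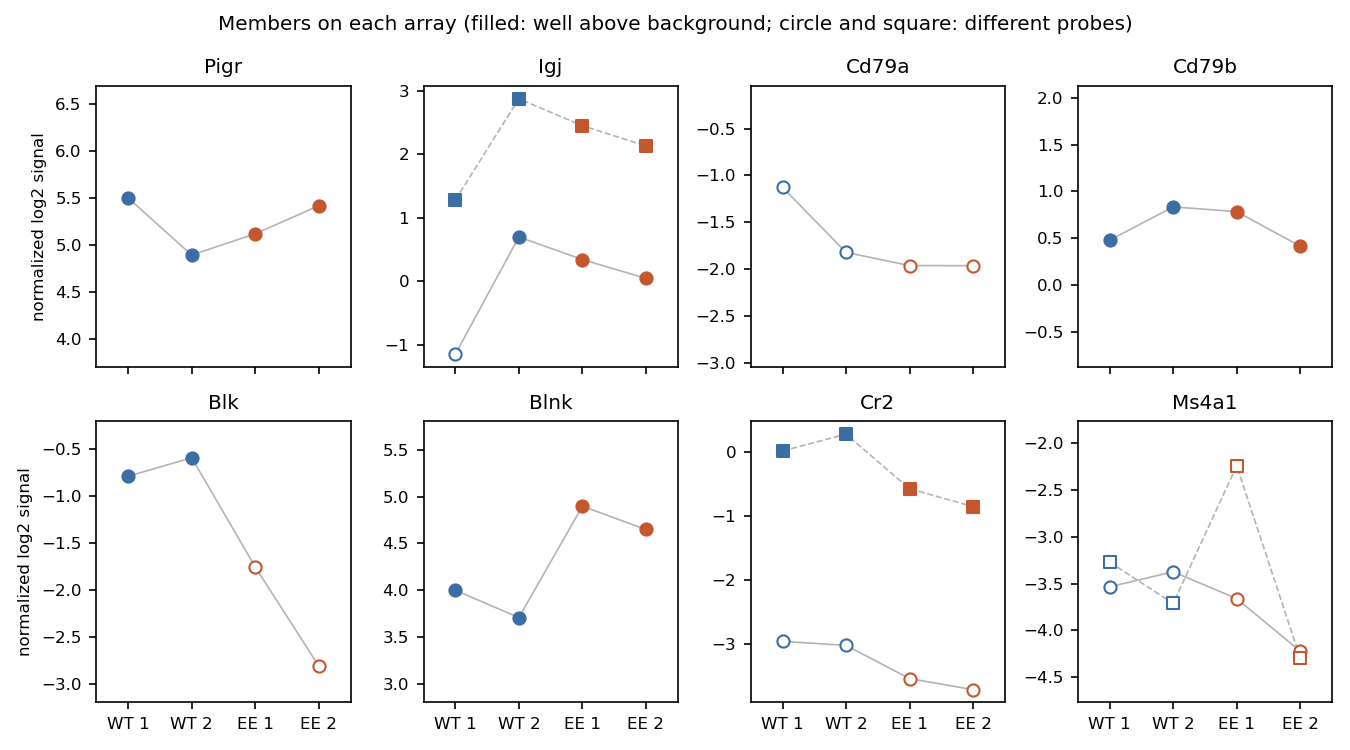
Normalized log2 signal (vertical axes, each panel with its own range) of every probe of the 8 members on the 4 arrays; blue points are WT, orange points EE, open points are not well above background, and lines join the values of 1 probe. Blnk is higher and Blk and Cr2 are lower on both EE arrays, Igj is low on WT 1 alone, and Cd79a and Ms4a1 have open points only.

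The transport receptor Pigr was read by 1 probe at chromosome 1, 132679010 to 132679069 on the plus strand, in the mm8 coordinates of the files, which do not give the exon of a probe. Its log2 signal was 5.50 on WT 1 and 4.89 on WT 2, and 5.12 on EE 1 and 5.42 on EE 2. The WT arrays were thus the highest and the lowest, and both EE arrays lay between them. The means were 5.20 ± 0.43 in WT and 5.27 ± 0.21 in EE (SD, n = 2 each), and the log2 difference was 0.072 ± 0.26 (SE), with a 95% interval from -0.58 to 0.72 and an adjusted p of 0.853 in limma. The interval leaves room for a change in either direction, so these arrays do not show that Pigr stayed level. Pigr passed under none of 15 other ways of processing the arrays or leaving 1 out, with differences from -0.23 to 0.38 and adjusted p-values from 0.131 to 1.00. It turned negative without WT 2 (-0.23) and without EE 2 (-0.078).

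Igj, the joining chain, differed more between the WT arrays than between genotypes. Its brighter probe (chromosome 5, 89595455 to 89595514, minus strand) read 1.28 on WT 1 and 2.87 on WT 2, and 2.45 and 2.13 on EE 1 and 2. WT 1 stood low, and the other 3 arrays lay within a narrower range with WT 2 on top. The gap between the WT arrays, 1.59 on the log2 scale or 3.02-fold, was as large in only 1.27% of all genes tested. The second Igj probe (89595625 to 89595684, minus strand) followed the same order, with -1.15 on WT 1, where it was not well above background, then 0.69, 0.34 and 0.042.

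The mean Igj signal was 2.07 ± 1.13 in WT and 2.29 ± 0.22 in EE (SD, n = 2 each). The log2 difference was 0.21 ± 0.52 (SE), with a 95% interval from -1.07 to 1.50 and an adjusted p of 0.777 in limma. The direction was set by which WT array was used. Without WT 1 the difference was -0.58 (adjusted p = 0.0302), and without WT 2 it was 1.01 (adjusted p = 0.00281), both by limma with the remaining WT array assumed to vary like the EE arrays. These 2 were the only ones of 15 alternatives that passed, the adjusted p-values spanning 0.00281 to 1.00.

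Some heavy chain probes showed the same low value on WT 1, and others did not. The array names 4 probes Igh, after 1 cDNA of the heavy chain complex, and the files do not give the antibody class they report. Of these, 3 lie side by side on chromosome 12, 113706582 to 113706899 (minus strand, mm8), at lower coordinates than every other immunoglobulin probe mapped to this chromosome. The brightest of them read 4.34 on WT 1, 5.64 on WT 2, 6.01 on EE 1 and 5.68 on EE 2. The other 2 read 1.67, 2.92, 3.17 and 3.05, and 2.56, 3.90, 4.13 and 3.89, in the same order of arrays. WT 1 was the lowest array for all 3, by 1.25 to 1.33 against WT 2, as it was for both Igj probes, by 1.59 and 1.85. Their log2 differences were 0.78 to 0.86, with adjusted p-values of 0.204 to 0.242 in limma over probes. The fourth Igh probe, at another place in the locus, read -1.09, -0.87, -1.32 and -1.81 and did not follow them. Nor did the tested probe of Igh-6, the heavy chain of IgM, which read 1.37 on WT 1 and 1.21 on WT 2.

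**Figure D2:**
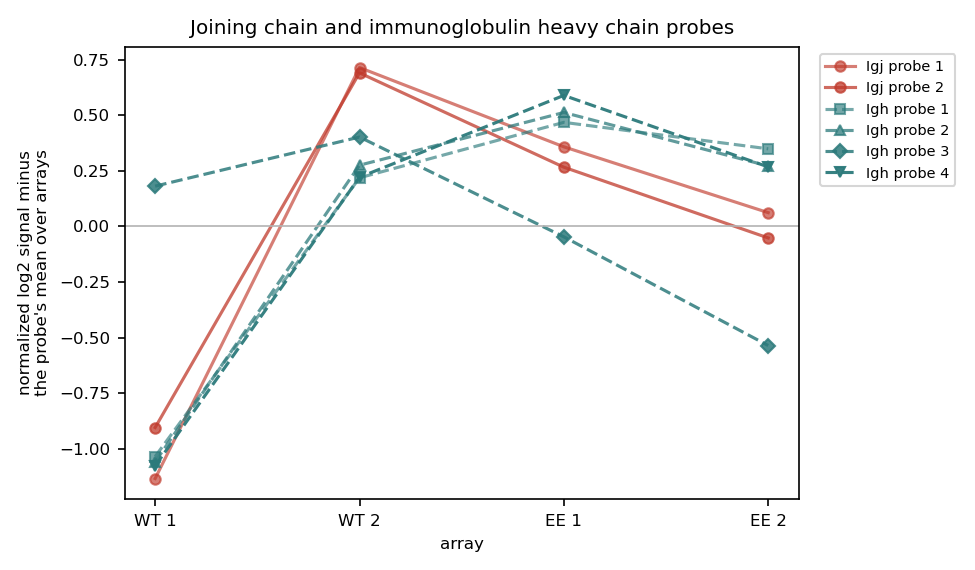
Normalized log2 signal of the 2 Igj probes (red, solid) and 4 Igh probes (teal, dashed) after subtracting each probe's mean over the 4 arrays (vertical axis, log2 units), by array. Both Igj probes and 3 Igh probes sit 0.90 to 1.13 below their mean on WT 1 and above or near it on the other arrays, while 1 Igh probe does not.

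Immunoglobulin chains as a whole were described from 118 probes whose deposited description names an immunoglobulin heavy or light chain, a set chosen after values were seen. Of these, 38 were well above background on at least 2 arrays. The number well above background on each array was 26 on WT 1, 42 on WT 2, 36 on EE 1 and 34 on EE 2, fewest on WT 1, which also had the smallest share of all spots well above background. By level WT 1 was not the lowest: the median log2 signal of the 38 was -0.67 on WT 1, -0.41 on WT 2, -0.85 on EE 1 and -1.22 on EE 2. In the fit over 16394 probes, 1 rose, 2 fell and 35 did not pass, against 13.9% of all probes called. The median log2 difference of the 38 was -0.46, against -0.080 over all probes. Chain segments are near-identical to one another, so a probe may read more than 1 of them.

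The probe of the IgM constant segment (chromosome 12, 113868697 to 113868756, minus strand) rose. It read -0.91 and -1.13 in WT and 0.66 and 0.20 in EE (log2 difference 1.45 ± 0.22, adjusted p = 0.0181 in limma). Igh-6, also the heavy chain of IgM, had 3 probes, of which 1 was tested. That probe differed by 0.72 ± 0.20 and did not pass (adjusted p = 0.0638 in limma over genes). A probe of the IgG2c constant segment (113736096 to 113736471, minus strand) fell, from 1.54 and 1.45 to -0.96 and -1.25 (-2.60 ± 0.19, adjusted p = 0.00310). The difference was larger than this probe's gaps between replicates, but a second probe of the same segment was not well above background on any array. The third probe called, from the Igh-VJ558 family of variable segments, entered the test through the WT arrays alone. It was at least 1.94-fold lower (adjusted p = 0.0336 in limma). The words "at least" stand where neither array of the dimmer genotype was well above background. The brighter mean is then set against a floor, taken on each dim array as the lowest value of any probe well above background there, or the probe's own value if that is higher. Such a fold comes from measured means and makes no allowance for the spread between replicates.

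Among the B cell receptor chains, Cd79b was measured and Cd79a was not. The Cd79b probe (chromosome 11, 106127556 to 106127615, minus strand) read 0.48 on WT 1, 0.83 on WT 2, 0.78 on EE 1 and 0.42 on EE 2. The genotypes overlapped fully, with 1 higher and 1 lower array in each. The log2 difference was -0.057 ± 0.22 (SE, n = 2 each; adjusted p = 0.863 in limma), with a 95% interval from -0.61 to 0.50. No alternative of 15 passed, and the difference ranged from -0.24 to 0.13. The Cd79a probe (chromosome 7, 24608094 to 24608351, plus strand) read -1.13, -1.82, -1.96 and -1.96 in the same order, with no array well above background.

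The coreceptor gene Cr2 fell on 1 of its 2 probes. The probe at chromosome 1, 196864079 to 196864138 (minus strand), read 0.021 on WT 1 and 0.28 on WT 2, and -0.57 on EE 1 and -0.85 on EE 2. Both EE arrays lay below both WT arrays, and the means were 0.15 ± 0.19 and -0.71 ± 0.20 (SD, n = 2 each). The log2 difference was -0.86 ± 0.20 (SE), a 1.82-fold fall, with an adjusted p of 0.0455 in limma. Before scaling, the processed signals were 61.1 and 80.5 in WT and 63.8 and 59.9 in EE and overlapped, so the fall is relative to the overall brightness of each array, whose 75th percentile was 60.3 and 66.1 in WT and 94.6 and 107.8 in EE. With quantile normalization it was -0.84 (adjusted p = 0.0461). The other Cr2 probe (196841901 to 196841960) read -2.95, -3.02, -3.53 and -3.71 and was not well above background on any array.

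The fall of Cr2 was kept under 6 of 15 alternatives, with adjusted p-values from 0.00182 to 1.00 and differences from -0.999 to -0.24, all negative. It no longer passed with the array median (adjusted p = 0.0703) or the percentile of detected probes (adjusted p = 0.0523) as the scale, in the authors' value table (-0.32, adjusted p = 0.0843), with the replicate number as a block (adjusted p = 0.0621), with no filter on dim probes (adjusted p = 0.0628), with the normexp background correction as first fitted (-0.24, adjusted p = 1.00) or refitted (-0.45, adjusted p = 0.0617), or without EE 1 (adjusted p = 0.217) or 2 (adjusted p = 0.352), all by limma. Ms4a1 had 2 probes on chromosome 19 (11318382 to 11318441 and 11317922 to 11317981, minus strand). They read -3.54, -3.38, -3.66 and -4.22, and -3.27, -3.71, -2.24 and -4.30, on WT 1 and 2 and EE 1 and 2. None of these 8 values was well above background, and the 2 probes did not follow the same order.

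Of the signalling members below the receptor, Blnk rose. Its probe (chromosome 19, 40982249 to 40982308, minus strand) read 3.999 on WT 1, 3.71 on WT 2, 4.90 on EE 1 and 4.65 on EE 2. Both EE arrays lay above both WT arrays, with means of 3.85 ± 0.21 and 4.77 ± 0.18 (SD, n = 2 each). The log2 difference was 0.92 ± 0.20 (SE), a 1.89-fold rise with a 95% interval from 0.42 to 1.41 on the log2 scale and an adjusted p of 0.0399 in limma. The unscaled signals, 964 and 864 in WT and 2818 and 2704 in EE, did not overlap either. In the authors' value table the log2 difference was 0.96. The rise had the same sign under all 15 alternatives (0.77 to 1.15; adjusted p from 0.00109 to 1.00) and passed in 11. It did not pass without EE 1 (0.79, adjusted p = 0.291) or 2 (1.04, adjusted p = 0.218), with no filter on dim probes (adjusted p = 0.0628) or with the normexp background correction (0.80, adjusted p = 1.00).

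The kinase gene Blk fell, and in EE it was no longer well above background. Its probe (chromosome 14, 62332606 to 62333743, minus strand) read -0.79 on WT 1 and -0.59 on WT 2, and -1.76 on EE 1 and -2.81 on EE 2. It was well above background on both WT arrays and on neither EE array, so it entered the test through WT alone. By its measured means Blk was at least 2.27-fold lower in EE, with no allowance for the spread between replicates. The fitted log2 difference was -1.60 ± 0.36 (SE, n = 2 each; adjusted p = 0.0442 in limma), between measured means of -0.69 ± 0.14 and -2.28 ± 0.75 (SD).

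The replicates of Blk were 1.06 apart in EE, a gap that only 0.354% of all genes reached. The unscaled signals of Blk did not overlap, at 34.9 and 43.9 in WT and 28.0 and 15.3 in EE. Neither EE value was well above background, and entry through WT alone favours a lower value in EE. The lack of overlap, the sign and the calls under the alternatives are therefore descriptions only. Blk stayed negative under all 14 alternatives that measured it (-2.12 to -0.26; adjusted p from 3.9e-05 to 1.00) and passed in 10. It did not pass in the authors' value table (-0.36, adjusted p = 0.109), without EE 2 (-1.07, adjusted p = 0.198), with no filter (adjusted p = 0.0628) or with the normexp correction (-0.26, adjusted p = 1.00).

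**Figure D3:**
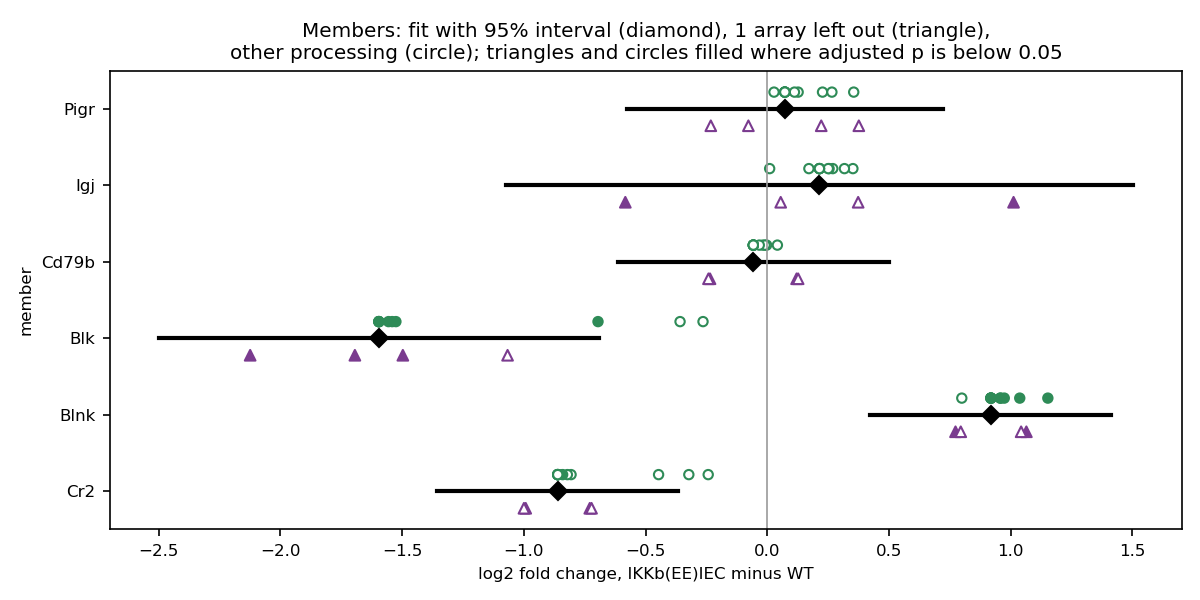
Log2 difference of the 6 tested members, EE minus WT (horizontal axis), with the 95% interval of the limma fit (diamond and bar), the values with 1 array left out (triangles) and those under other processing (circles); filled triangles and circles passed an adjusted p below 0.05. Blnk stays to the right and Blk and Cr2 to the left of 0 throughout, while Igj passes on both sides of 0 depending on the WT array left out.

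Of the 6 tested members, 3 had a positive and 3 a negative log2 difference, and movement as a block was not tested. Of 9 B cell markers on the array, 5 were well above background on some array and 3 on all 4, namely Cd79b, Blnk and Cr2. Cd79a, Ms4a1 and Pax5, the last the transcription factor that fixes B cell identity, were among those not well above background on any array. The summed linear signal of the 9 was 20.4 and 18.1 in WT and 33.7 and 28.1 in EE, in units of each array's 75th percentile. Without Blnk the other 8 summed to 4.42 and 5.03 in WT and 3.89 and 2.98 in EE. The sum was higher in EE with Blnk and lower without it, and it includes the markers not well above background. Which cells carried the Blnk transcript was not tested.

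Plasma cell marker genes were well above background only in part, and which cells carried them was not tested. Of 6 on the array, Igj, Sdc1 and Xbp1 were well above background on all 4 arrays, and Prdm1, Mzb1 and Tnfrsf17 on none. Their summed signal was 5.05 and 10.7 in WT and 8.46 and 7.37 in EE, a sum that includes Igj and its low value on WT 1. A wider plasma cell list of 7 measured genes, with immunoglobulin chains and secretory pathway genes, had 0 that passed in limma and 2 with an unadjusted p below 0.05 (median log2 difference 0.14). The smallest p-values were those of Igh-6, the heavy chain of IgM (0.72 ± 0.20, adjusted p = 0.0638 in limma), and Creld2, an endoplasmic reticulum protein (0.57 ± 0.21, adjusted p = 0.108).

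Genes that surround the members in B cell signalling rose in 3 of 13 measured cases, against 8.02% of all genes, and fell in none, against 7.2%, with a median of 0.34, and 14 more on the array were not measured. Lyn, the Src family kinase that phosphorylates the receptor chains and is also used by myeloid cells, read 0.41 and 0.47 in WT and 1.97 and 1.92 in EE (log2 difference 1.50 ± 0.16, adjusted p = 0.00676 in limma). The arrays of each genotype lay close together and far from the other genotype. In the authors' value table the difference of Lyn was 0.84. Bcl10, part of the complex that links antigen receptors to IKK, rose by 0.81 ± 0.18 (adjusted p = 0.0438), or by 1.69 (adjusted p = 0.0232) with its probes averaged. Malt1, its partner, entered the test through the EE arrays alone and was at least 1.93-fold higher (adjusted p = 0.0223). It did not pass in the authors' value table (0.32, adjusted p = 0.0674). All 3, and Foxo1 below, lost their call without EE 1 and also without EE 2. Of the B cell transcription factors 4 of 12 were measured, and 1 rose and 0 fell, against 8.02% and 7.2% of all genes. The 1 that rose was Foxo1, a regulator of early B cell genes, at 1.12 ± 0.18 (adjusted p = 0.0220 in limma). Its value became 0.62 (adjusted p = 0.0695 in limma) when its probes were averaged. Pax5, Ebf1, Pou2af1, Pou2f2, Spib, Ikzf1, Bach2 and Irf4 were not well above background on any array.

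Signals that induce IgA switching or attract IgA cells rose in 1 and fell in 1 of 7 measured cases, against 8.02% and 7.2% of all genes. Tnfrsf13c, the receptor for the B cell survival factor BAFF, read -3.47 and -2.88 in WT, where it was not well above background, and 4.72 and 4.62 in EE. It entered the test through the EE arrays alone and was at least 64.6-fold higher (adjusted p = 0.000641 in limma). In the authors' value table it differed by 4.38 in log2. Of the 9 B cell markers, 4 were well above background on EE 1 and 3 on EE 2. Which cells carried the Tnfrsf13c transcript was not tested. Aldh1a1, which makes retinoic acid, fell from 4.997 and 5.17 to 3.22 and 3.03 (-1.96 ± 0.18, adjusted p = 0.00441). Both kept their call with any array left out. The chemokines Ccl28 and Ccl25, which draw IgA plasma cells and their precursors into the gut wall, had differences of -0.14 ± 0.37 and 0.076 ± 0.20 and did not pass (adjusted p = 0.797 and 0.798).

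Of the transcription factors, cytokine receptors and vesicle proteins listed for a role in Pigr regulation or epithelial antibody transport, 20 were measured, and 6 rose and 2 fell, against 8.02% and 7.2% of all genes, with a median of 0.25. The NF-kB subunit genes Nfkb2, Relb and Nfkb1 rose by 2.25 ± 0.19 (adjusted p = 0.00381), 1.92 ± 0.20 (adjusted p = 0.00641) and 1.62 ± 0.36 (adjusted p = 0.0420), all by limma. With its probes averaged Nfkb1 rose by 2.28, and in the authors' value table the differences of Nfkb2 and Nfkb1 were 1.22 and 0.76. For Nfkb2 the arrays read -0.38 and -0.14 in WT and 1.87 and 2.11 in EE, with no overlap. Il4ra, the receptor chain for interleukin 4, which is known to raise Pigr, rose by 1.30 ± 0.17 (adjusted p = 0.0121). Myd88, an adaptor of Toll-like receptors, also rose, and Usf2, whose protein binds E-boxes, and Rab3d, a vesicle GTPase, fell. Of the 4 genes given with values here, Nfkb2 kept its call without any 1 array, Relb lost it without EE 1, and Nfkb1 and Il4ra lost it without either EE array. On the same arrays the 95% interval of Pigr ran from -0.58 to 0.72.

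Cells of the lymphoid follicle were looked for because Cr2 also marks follicular dendritic cells. Of 8 such markers 5 were measured, and 3 of these did not pass. Mfge8 rose (1.64 ± 0.19, adjusted p = 0.00872 in limma) and Cr2 fell, against 8.02% and 7.2% of all genes. Of this list Cr2, Mfge8 and Ltbr were well above background on all 4 arrays, Clu on 3 and Madcam1 on 2. Cxcl13, Vcam1 and Fcgr2b were not on any array. Of the markers of M cells, the epithelial cells that cover follicles, 4 of 8 measured rose, against 8.02% of all genes, and none fell (median 1.03), while Gp2, Spib and Umod were not well above background on any array. Those that rose were Ccl20, the ligand of CCR6 (7.14 ± 0.32, adjusted p = 0.000893 in limma), Cxcl16 (3.82 ± 0.16), Pglyrp1 (3.15 ± 0.31) and Anxa5. Anxa5 entered the test through the EE arrays alone (at least 3.19-fold), and its log2 difference in the authors' value table was 0.53. Mfge8 and Anxa5 lost their call without either EE array. Of 14 measured T and NK cell markers, 0 passed in limma and 4 had an unadjusted p below 0.05, with summed signals of 139 and 171 in WT and 119 and 106 in EE, and their part in the members' values was not tested.

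**Figure D4:**
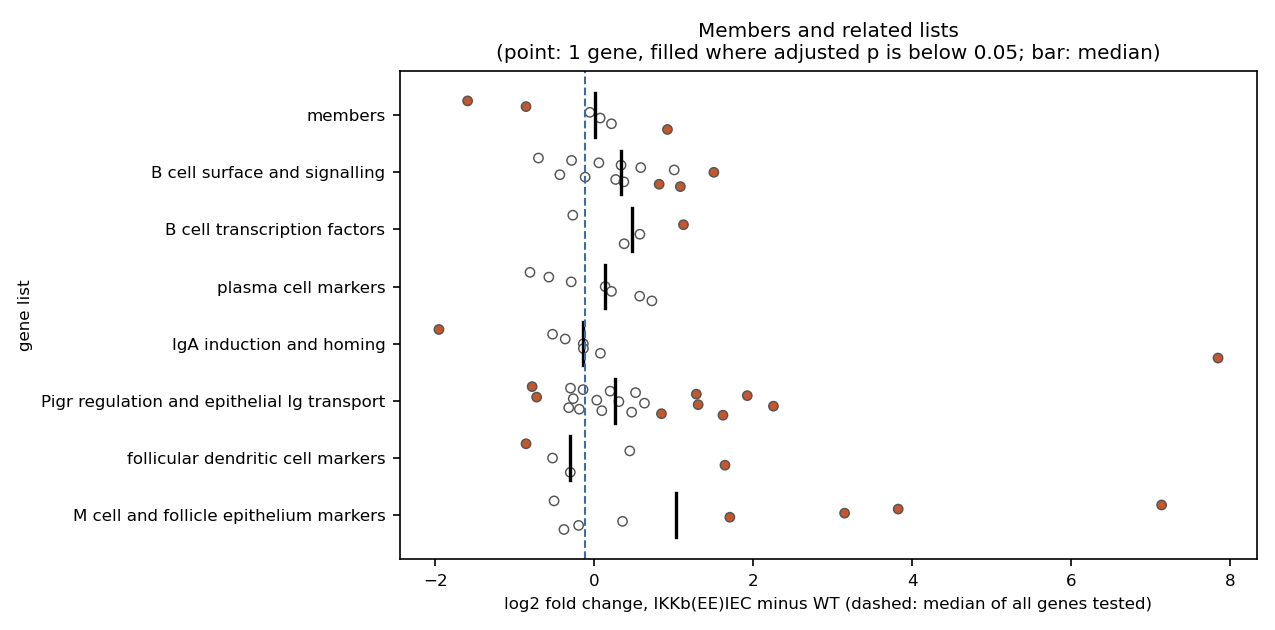
Log2 difference, EE minus WT (horizontal axis), of each measured gene (points) in the members and 7 related lists (vertical axis); filled points passed an adjusted p below 0.05, black bars are list medians and the dashed line is the median of all genes, -0.12. The members spread to both sides of the line, and the points farthest to the right are Tnfrsf13c and Ccl20.

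The genes of nearest pattern were taken from 10363 named genes by the Euclidean distance between their 4 log2 values and those of a member, each centred on its mean over the arrays. For Pigr they were Tmem181a (distance 0.081), Zfp169 (0.084) and Zc3h3 (0.095), and for Cd79b Mtf1 (0.065), Gbp9 (0.086) and Sar1b (0.098). For Blnk they were Pcgf5 (0.043), Shisa5 (0.045) and Tnfrsf10b (0.053). Their log2 differences of 0.91 to 0.95 lie near that of Blnk because they were chosen by these same values. For Cr2 they were Pelp1 (0.034), Gh (0.055) and Palmd (0.060). Igj and Blk, the members with the widest gaps between replicates, had less close neighbours: Tmem254a (0.225), Hoxc10 (0.229) and Psat1 (0.252) for Igj, and Mei1 (0.164), Reg2 (0.286) and H2al1m (0.314) for Blk. The members themselves were left out of the search. None of the genes found is a listed B cell gene. Only 13 genes of the B cell signalling list and 4 of the B cell transcription factors were measured, so this absence says little about the members. With 4 arrays many genes share a pattern.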

How the data were processed

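Cy3-labelled cRNA of 4 samples was hybridised to Agilent arrays of 43379 non-control and 1639 control spots. Per the file headers, the deposited intensities are background-subtracted processed signals from Feature Extraction 9.5.3.1 that were not normalized across arrays as far as those headers say. The well-above-background, outlier and saturation flags used are also per the file headers. The authors' value table, linear intensities with column medians of 111.5 to 112.0, followed each array's spot intensity (Spearman 0.999 to 1.00) and served as an alternative. The sources used here do not say how it was normalized. The authors deposited no log2 values, and log2 was taken here.

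Each array's 75th percentile was subtracted, control and outlier spots (1 to 7 an array) were dropped, and repeated spots were averaged into 1 value a probe. A probe counted as well above background on an array where at least 0.5 of its spots carried the flag, and was tested where this held on at least 2 arrays. A gene was its probe of highest mean. Names came from RefSeq accessions for 24375 probes, from probes of the same listed name for 4648, and from the files for 12151. Probe coordinates are mm8.

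The test was limma 3.58.1 under R 4.3.3, with lmFit followed by eBayes. It was two-sided at 0.05, with Benjamini-Hochberg adjustment across the 12437 genes or, for probe values, across 16394 probes. The fit was tested on simulated data. With 2 against 2 arrays only 3 splits exist, each 33.3% of them, so no permutation test can reach 0.05. Nothing says which samples share a mouse. Each p-value sets a difference against the spread between these samples, which eBayes draws toward a spread common to all genes (3.51 prior degrees of freedom). The members, lists, named genes (all members, up to 4 passing genes of a list with the largest change or 2 with the smallest p, and 3 nearest patterns a member) and alternatives were chosen with earlier results of these data known. Igh, immunoglobulin probes, Ccl28, Ccl25, Myd88, Usf2 and Rab3d were named after their values were seen. Some listed genes are not reported here by name. The number of arrays limits the precision, and background limits it for dim probes.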

Additional observations from a re-analysis of the deposited data

How the results depend on the processing

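Against 1893 genes called, no filter on dim probes gave 843 (of 27727 tested), and leaving out 1 array gave 247 to 6175, the fewest without EE 1 (247) and 2 (329). Of the members, 3 were called, against 1 in the authors' value table, 0 with no filter (3 at an unadjusted p below 0.05) and 0 to 4 with 1 array left out, 0 being without EE 2. Of the 7 member probes, 3 were called, and 1 in the authors' value table. In the related lists 19 of 62 genes were called, against 11 of 107 with no filter and 6 to 37 with 1 array left out. The normexp background correction called 0 genes, 0 members and 0 in the related lists by limma (171, 0 and 4 at an unadjusted p below 0.05), with its background mean fitted at -104 and -373 on WT 1 and EE 2, where 4 spots each lay below their local background. Fitted without such spots, an alternative chosen after seeing the data, it called 1961 genes, 2 members and 22 in the related lists. Higher genes made up 52.7% of calls. That share was 63.2% with the array median as scale, 72.1% with the second normexp fit, 42.6% without WT 1, 66.8% without EE 1 and 68.4% without EE 2. The split was 771 higher and 1157 lower where a probe had to be well above background on all 4 arrays. The sign turned for Igj without WT 1 (-0.58; range with 1 array left out -0.58 to 1.01), for Pigr without WT 2 (-0.23) and EE 2 (-0.078; range -0.23 to 0.38), and for Cd79b without WT 2 (0.12), without EE 2 (0.13; range -0.24 to 0.13) and with the second normexp fit (0.042). The cause was not tested. The replicate numbers pair no samples by the labels, and same-numbered arrays' deviations correlated at 0.108 over 2 pairs. With the replicate block 1500 genes, 2 members and 16 related genes were called, Cr2 being the member lost. For probes not well above background (Cd79a, Ms4a1 and the second Cr2 probe), signal over background is the limit, and no change in them can be read.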
